A study of Homo sapiens with 22 samples.

Results

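The libraries labelled KO2 rescue are 2 RNA-seq libraries from SETD2 KO renal proximal tubule epithelial cells (RPTEC), and they were compared here with 2 libraries of untreated WT RPTEC. Together they are 4 of the 22 libraries of the series, taken by their labels. All RPTEC used here were immortalized with hTERT. SETD2 was disrupted in the KO cells with Cas9 and a guide to exon 3, and the KO lines were grown from single cells, so each of them is 1 clone. Rescue cells received a lentivirus carrying FLAG-tagged full-length SETD2, were selected with blasticidin and were grown from picked colonies. WT, KO1, KO2 and labelled KO2 rescue are all labelled as untreated cells in 2% serum. The treatment notes of the labels give 10% serum for rescue cells in general, and for the libraries labelled KO2 rescue the 2% of their own labels was used. WT eGFP, used below as a further WT reference, carries an eGFP vector and was grown in 10% serum. WT with TGF-β, named in a few places below, received 10 ng/ml TGF-β for 72 h in 2% serum. Each group has 2 libraries, and no source used here says that they came from separate cultures, so p-values measure the spread between these libraries, which may be technical.

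SETD2 is the enzyme that adds the third methyl group to lysine 36 of histone H3 along the bodies of transcribed genes, and it is often lost in clear cell renal carcinoma. Epithelial to mesenchymal transition (EMT) is the passage from a polarized cell held by junctions to a motile cell that makes matrix, driven by transcription factors of the ZEB, SNAI and TWIST families. Proximal tubule cells normally reabsorb phosphate, glucose, amino acids and filtered protein through apical transporters and receptors.

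The guide is shown because its cut defines the KO cells from which the line was made. It is written with the PAM in capitals and lies on the plus strand of chromosome 3, at chr3:47122997-47123016 of GRCh38. SETD2 is transcribed from the minus strand, and the site falls in exon 3, which spans 47120182 to 47124548 in GENCODE release 44.
SETD2 guide: tagaatatgatgaccctcgtCGG

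SETD2 mRNA went against the rescue label. It had 1852 and 2061 normalized counts in the WT libraries and 834.5 and 819.6 in those labelled KO2 rescue. KO2 had 1050 and 1052, while the clones Rescue1 and Rescue2 had 9764 to 10445. The labelled KO2 rescue libraries were the lowest of all 22 and did not overlap any other group. Against WT the log2 change of SETD2 (ENSG00000181555) was −1.24 (SE 0.07, adjusted p = 5.64e-09), and against KO2 it was −0.35, under the fold threshold. A mutated mRNA can still be counted, so these levels do not measure SETD2 protein. The libraries are therefore written below as the line labelled KO2 rescue.

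**Figure D1:**
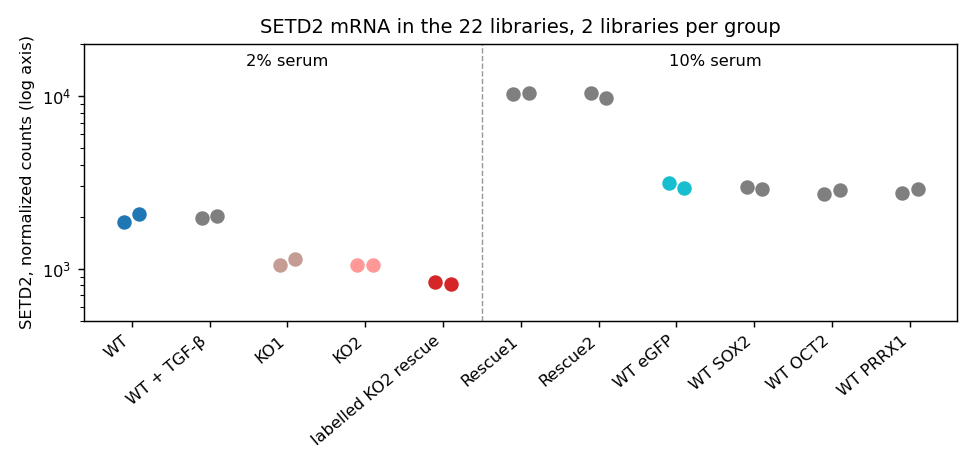
SETD2 normalized counts on a log axis in each of the 22 libraries, with groups in 2% serum to the left of the dashed line and groups in 10% serum to the right. Each point is 1 library. The 2 points of the line labelled KO2 rescue, at 834.5 and 819.6, lie below all others, and the points of Rescue1 and Rescue2 lie above all others.

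Normalized counts added up to 13992475 and 14095454 in labelled KO2 rescue and to 13001168 and 12164417 in WT, with approximately 13300000 to 14800000 reads behind each. The WT duplicates stood further apart than most. Taking genes at 1000 normalized counts or more, duplicates lay a median of 0.174 apart on the log2 scale in WT and 0.072 in labelled KO2 rescue. Of 8006 genes with a mean of at least 100, 474 differed by over 2-fold between the WT duplicates, against 224 of 8012 in labelled KO2 rescue. A value of 0 is written below as listed at 0, because HPRT1, a purine salvage enzyme that cells in general use, was listed at 0 in both labelled KO2 rescue libraries and in KO1. HPRT1 had 32.33 and 195.9 normalized counts in WT and was called lower (adjusted p = 0.0102), and that call was lost without WT replicate 2 (adjusted p = 0.0993) and without labelled KO2 rescue replicate 1 or 2 (adjusted p = 0.0518 and 0.0535).

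The label of the cell type was checked against marker lists. Of 12 proximal tubule markers, the lineage factors PAX8 and PAX2 were well above 0 in all 4 libraries, PAX8 at 2322 and 3743 in WT and 3401 and 3142 in labelled KO2 rescue. The receptor LRP2, the transporter SLC22A6 and the nuclear factor HNF4A were listed at 0 in all 4, so mature proximal tubule markers were absent from both lines. Summed over the list the markers had 4088 and 5714 normalized counts in WT and 5139 and 4967 in labelled KO2 rescue. Of the 10 immune markers, PTPRC was at or near 0 and CD3E and CD14 were listed at 0 in all 4 libraries. The macrophage marker CD68 was not, with 147.4 and 105.6 in WT and 30.57 and 2.539 in labelled KO2 rescue, and it made up most of the WT sum of the immune list. CD68 was the 1 immune marker of 4 tested that was called, lower (adjusted p = 0.0167), and the call was lost without either WT library (adjusted p = 0.0839 and 0.0507) and without labelled KO2 rescue replicate 2 (adjusted p = 0.231). The endothelial PECAM1 and the podocyte NPHS1 were at or near 0 in all 4 libraries. The sums of these lists ranged from 123.8 to 219.3 in WT and from 21.14 to 46.39 in labelled KO2 rescue for the immune list, and from 10.62 to 40.67 and 52.52 to 55.82 for the endothelial list. For the podocyte list they ranged from 487.9 to 809.3 and from 411.3 to 468.2. The distal tubule list had sums of 254.5 and 297.7 in WT and 74.72 and 77.04 in labelled KO2 rescue, with 2 of its 4 tested members called lower and 1 without WT replicate 1 or labelled KO2 rescue replicate 2. KDR, a VEGF receptor, was the 1 endothelial marker called higher, at 0.7704 and 0 in WT and 7.004 and 8.114, and it was not called without WT replicate 2 or either labelled KO2 rescue library. Among podocyte markers PODXL was called higher and SYNPO lower, and neither was called without WT replicate 2, nor PODXL without either labelled KO2 rescue library. The part of these markers in the results was not tested.

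Against WT, 1854 of the 14585 tested genes (12.7%) were called differentially expressed in labelled KO2 rescue. A gene counted as called when its adjusted p was below 0.05 and it moved by more than 1 on the log2 scale. Of these, 1050 were higher (7.2% of the tested genes) and 804 were lower (5.51%). When all libraries were instead brought to the same total, the median over all genes shifted by −0.14 on the log2 scale and the split turned to 900 higher and 1051 lower, so that 46.1% of the called genes were higher in place of 56.6%. Changes of over 8-fold were called for 389 higher and 213 lower genes, and 137 of the genes called higher were listed at 0 in both WT libraries. Over the same genes 608 (4.17%) were called between labelled KO2 rescue and KO2, and 2378 (16.3%) between KO2 and WT. Both comparisons with WT share the WT libraries. The median absolute log2 difference from labelled KO2 rescue over all tested genes was 0.375 for KO2 and 0.508 for WT, and KO2 was the nearest of the 10 other groups by this measure. Called genes were spread over the genome, with 10.3% of tested genes called on chromosome 17, the lowest share, and 20.7% on chromosome 4, the highest. No chromosome had a median log2 change beyond 0.12 in either direction.

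**Figure D2:**
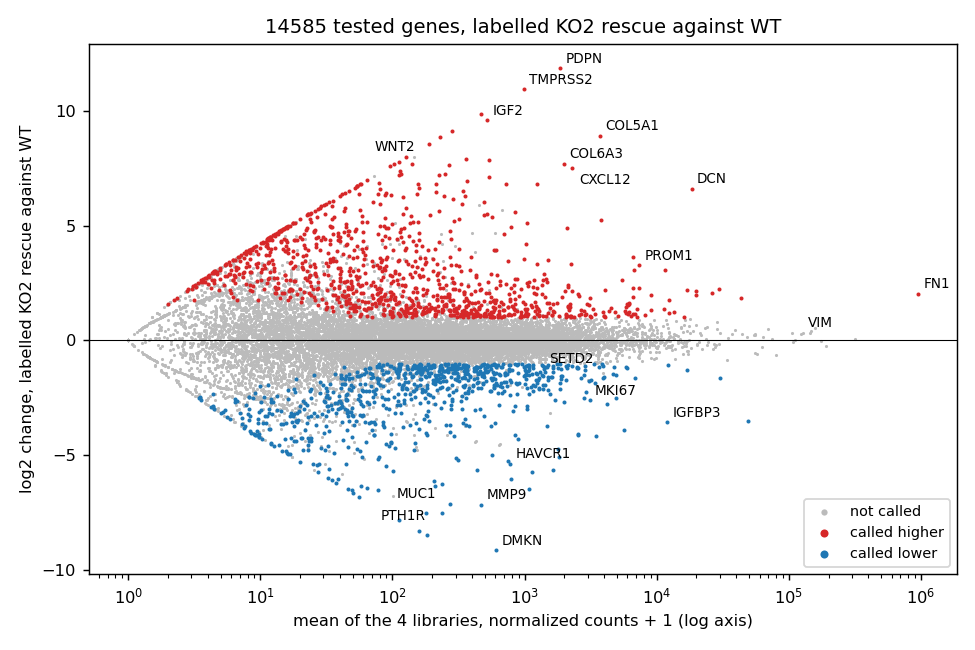
Log2 change of labelled KO2 rescue against WT for the 14585 tested genes, plotted against the mean of the 4 libraries (normalized counts + 1, log axis). Red and blue points are genes called higher and lower, grey points were not called, and selected genes are labelled. PDPN and TMPRSS2 are at the top and DMKN is at the bottom.

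The largest rises were mostly of genes hardly detected in WT. PDPN, the membrane glycoprotein podoplanin found on lymphatic endothelium and on invasive cells, was listed at 0 in both WT libraries and had 3832 and 3576 normalized counts in labelled KO2 rescue (adjusted p = 3.93e-12). TMPRSS2, a serine protease of the cell surface, was listed at 0 in WT and had 1839 and 2104 (adjusted p = 4.55e-13). The tetraspanin TSPAN18, also listed at 0 in WT, had 927.8 and 939.8. These genes were on in the KO clones too, PDPN at 4942 and 4447 in KO2 and TMPRSS2 at 3542 and 3355.

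Transcription factors and growth factors of other lineages were among the same 10 rises. FLI1, an ETS factor of blood and endothelial cells, was listed at 0 in WT and had 620.2 and 506.7 in labelled KO2 rescue. IKZF1, the lymphoid zinc finger factor Ikaros, went from listed at 0 to 473.9 and 442.1. The growth factor IGF2 had 0 and 0.7987 in WT and 972.8 and 1097 in labelled KO2 rescue. In all 3 genes the groups were far apart. The 10 rises were chosen for large changes and for libraries that do not overlap, so this is a description. NCAM1, a neural adhesion molecule, had 8.027 and 0 in WT and 685.1 and 746.3 (adjusted p = 3.59e-06). WNT2 and COL5A1, also among these rises, are given below.

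Among the 10 largest falls, DMKN, which encodes the secreted epithelial protein dermokine, had 1174 and 1248 normalized counts in WT and 0 and 3.761 in labelled KO2 rescue (adjusted p = 1.85e-08). MUC1, an apical mucin, had 493 and 595.2 in WT and 2.194 and 3.802, a log2 change of −7.11 (SE 0.88, adjusted p = 2.8e-05). PTH1R, the parathyroid hormone receptor through which phosphate reabsorption is controlled, had 409.7 and 532 in WT and 2.914 and 0.676. All 3 were close to 0 in KO2 as well. The junctional adhesion molecule JAM3 had 358.4 and 352.1 in WT and 2.709 and 0, and the gelatinase MMP9 had 1126 and 721.9 in WT and 7.026 and 4.118. MMP9 was also low in WT eGFP, at 1.545 and 0, so its difference depended on which WT served as reference. PTH1R was low in WT eGFP too, at 13.67 and 12.12. Its log2 change was −2.44 against WT eGFP (adjusted p = 0.0266) and −7.51 against WT. The other falls were MAL, ABI3BP, FAAH2, PHYHD1 and HPRT1. ABI3BP, a matrix protein, had 1592 and 2661 in WT and 11.67 and 42.09 in labelled KO2 rescue.

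Epithelial junction and polarity genes were more often lower than higher. Of the 31 tested members of this list, 10 were called lower and 1 higher, and the median log2 change was −0.91, where all tested genes had 0.00. With genes listed at 0 in one group set at a bound of 3 reads the median was −0.77. Over all tested genes 5.51% were called lower and 7.2% higher. Against WT eGFP the list had 8 called lower, 3 higher and a median of −0.30. Its summed counts were 59807 and 60965 in labelled KO2 rescue, 63547 and 64398 in WT and 40133 and 40633 in WT eGFP. ESRP2, a splicing regulator that keeps epithelial isoforms, had 511.1 and 753 in WT and 43.6 and 56.85 in labelled KO2 rescue, a log2 change of −3.61 (SE 0.33, adjusted p = 1.48e-06). DSC2, a desmosomal cadherin, was the exception, with 29.44 and 5.847 in WT and 312.8 and 278.5 (adjusted p = 0.000513). CDH16, the kidney-specific cadherin, had 123 and 170 in WT and 0 and 15.31. Its log2 change of −5.17 (adjusted p = 0.000889) was −3.16 without labelled KO2 rescue replicate 1, and CDH16 was not called with only the 4 libraries compared (adjusted p = 0.0849). E-cadherin (CDH1) was low in both groups, at 25.5 and 47.47 in WT and 1.45 and 3.234, and was not called (adjusted p = 0.146).

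The promoter of MUC1 is shown because its gene had the largest fall of the list and because ZEB and SNAI factors bind E-boxes in such promoters. The 100 bases before its start (chr1:155192916-155193015 of GRCh38.p14, minus strand, from RefSeq) hold the E-box CACCTG at 2 places, in capitals, which begin 82 and 75 bases before the start. CACCTG and its reverse complement CAGGTG were searched from 250 bases before to 50 after the start. Of the 10 epithelial genes called lower, 4 had a promoter in the table, and 3 of these held an E-box, while 20.6% of all 27305 promoters did. A match describes letters and not binding.
MUC1 promoter: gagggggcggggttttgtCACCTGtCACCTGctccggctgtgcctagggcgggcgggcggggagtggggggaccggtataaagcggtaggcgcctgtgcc

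EMT transcription factors were higher in part, where 7.2% of all tested genes were called higher and 5.51% lower. Of 15 tested, 7 were called higher and 1 lower (0 lower without WT replicate 1), with a median log2 change of 0.37. Against WT eGFP the list had 3 called higher, 2 lower and a median of −0.06, so the count and the median depended on the WT reference. ZEB2 had 317.5 and 330.4 normalized counts in WT and 1528 and 1563 in labelled KO2 rescue, a log2 change of 2.25 (SE 0.12, adjusted p = 4.81e-09). TCF4, an E-protein that favours EMT, had 59.98 and 60.11 in WT and 610.5 and 550.7, a change of 3.25 (SE 0.26, adjusted p = 4.09e-07). WT eGFP had TCF4 at 635.4 and 365, from which labelled KO2 rescue differed by 0.27 on the log2 scale, not called (adjusted p = 0.482). TBX3, a T-box repressor, had 1.311 and 3.895 in WT and 157 and 90.19. None of these 3 factors overlapped between the groups, and neither did 1853 of all 1854 called genes. ZEB1 moved by 0.29 and SNAI2 by −0.41 on the log2 scale, neither of them called, and TWIST1 was below the filter. SNAI2 had 397.7 and 405.7 in WT eGFP and 25.38 and 13.52 in labelled KO2 rescue. Against WT eGFP it was called lower, with a log2 change of −4.36 (adjusted p = 1.2e-06). PRRX1, a homeobox factor of mesenchyme, was listed at 0 in WT and had 0 and 0.6617 in labelled KO2 rescue, against 34.78 and 28.4 in KO2. POU2F2 (OCT2) had 39.28 and 237.2 in WT and 655.5 and 764.2, and its log2 change of 2.86 (adjusted p = 0.00104) was 1.57 with WT replicate 1 left out and 4.14 with WT replicate 2 left out. POU2F2 was not called with only the 4 libraries compared (adjusted p = 0.107), nor against WT eGFP (1.16, adjusted p = 0.113). SOX2 itself was not analysed here.

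Mesenchymal surface and cytoskeletal genes, and matrix genes, were higher. Over all tested genes, 7.2% were called higher and 5.51% lower. On the surface and cytoskeleton list 11 of 24 tested members were called higher and 1 lower, with a median log2 change of 0.88, and 7 were called higher without WT replicate 2. CDH11, a cadherin of mesenchymal cells, had 0.938 and 0 in WT and 276 and 284.1. Vimentin (VIM), the intermediate filament of mesenchymal cells, was high in both groups, at 125588 and 100632 in WT and 140391 and 143334, a log2 change of 0.34 that was under the fold threshold. Among fibrillar collagen and matrix genes 10 of 27 were called higher, with a median of 0.65. By limma 0 were called lower and 4 were lower at an unadjusted p under 0.05. With 1 library left out the count called lower was 1 without WT replicate 1 or labelled KO2 rescue replicate 1, and 3 without WT replicate 2.

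COL5A1, a chain of the type V collagen that starts fibrils, had 35.85 and 5.417 normalized counts in WT and 7477 and 7279 in labelled KO2 rescue, a log2 change of 8.91 (SE 0.56, adjusted p = 2.81e-08). COL6A3, a chain of beaded-filament collagen VI, had 18.38 and 17.99 in WT and 4062 and 3787, a change of 7.68 (SE 0.23, adjusted p = 1.01e-11). Decorin (DCN), a small leucine-rich proteoglycan that binds collagen, had 477.5 and 289.2 in WT and 37572 and 35187, a change of 6.61 (SE 0.18, adjusted p = 3.48e-12). In each of these matrix genes both labelled KO2 rescue libraries lay far above both WT libraries. Libraries did not overlap in 1853 of all 1854 called genes. DCN was higher still in KO2, at 98373 and 94978. DCN and LUM were the members called higher of the 3 small leucine-rich proteoglycans tested, and 1 was called higher without WT replicate 2 or labelled KO2 rescue replicate 1. Fibronectin (FN1), which links matrix to integrins, had 697564 and 180968 in WT and 1445357 and 1474322. Fitted at 2.04 on the log2 scale (SE 0.37, adjusted p = 0.000824), its rise was 3.01 when WT replicate 1 was left out and 1.07 when WT replicate 2 was, and with quantile normalization it was 1.04 and not called. FN1 was also not called with only the 4 libraries compared (adjusted p = 0.12).

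Among the fibroblast and pericyte markers, 3 of 9 tested were called higher, DCN, lumican (LUM) and PDGFRA, where 7.2% of all tested genes were. Without WT replicate 2 LUM and PDGFRA were not called (adjusted p = 0.109 and 0.059), nor was LUM without labelled KO2 rescue replicate 1 (adjusted p = 0.0585) or PDGFRA without replicate 2 (adjusted p = 0.0501). The markers summed to 12494 and 913.7 normalized counts in WT and 41178 and 38621 in labelled KO2 rescue. The type I and III collagen genes COL1A2 and COL3A1, which define fibroblasts, were near 0 in all 4 libraries, at 1.236 and 4.304 and at 7.928 and 2.009 in WT, and at 0.5673 and 10.48 and at 2.58 and 2.474 in labelled KO2 rescue. COL1A1 had 11919 and 531.9 in WT and 3087 and 3017 in labelled KO2 rescue, so the WT duplicates lay on either side of it.

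**Figure D3:**
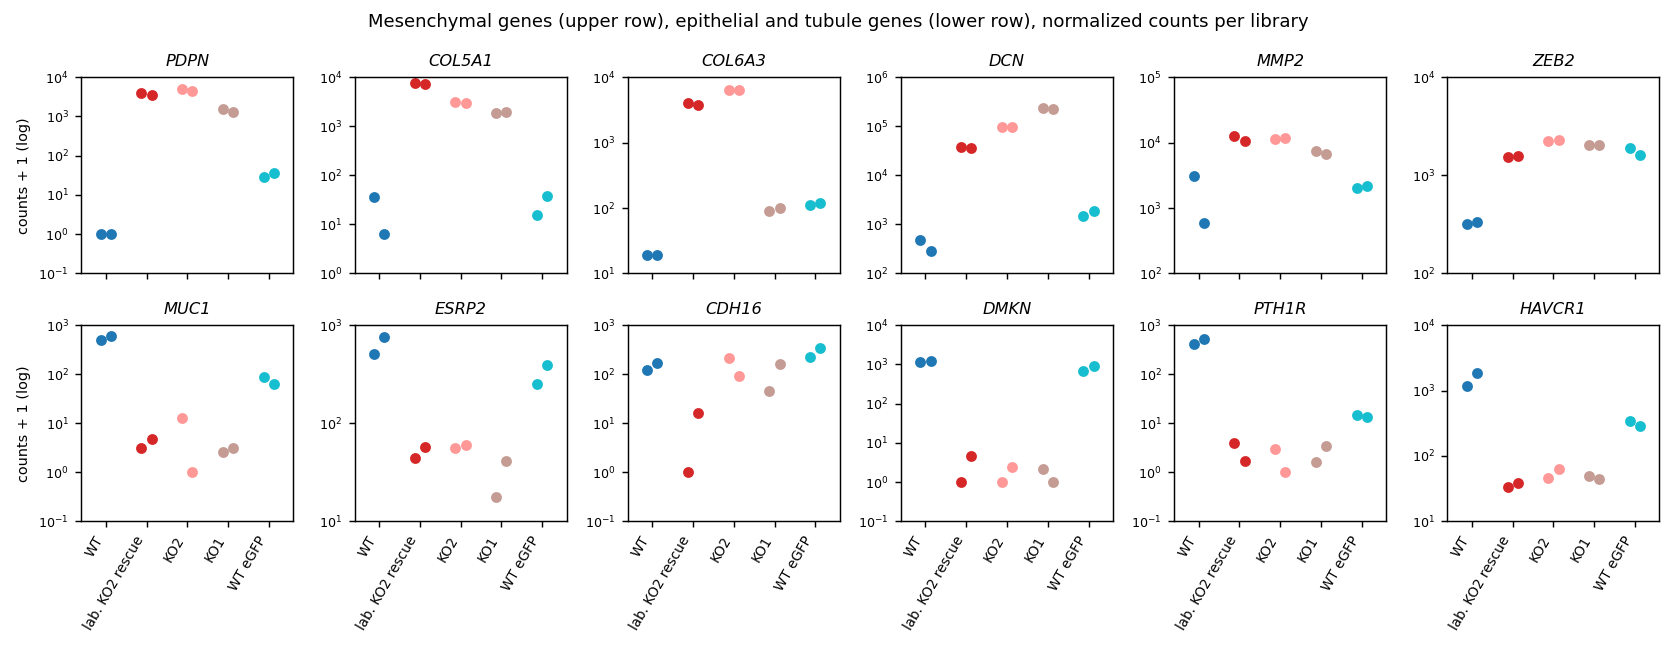
Normalized counts + 1 per library on log axes for 12 genes in WT, the line labelled KO2 rescue, KO2, KO1 and WT eGFP. Each point is 1 library. In the upper row the labelled KO2 rescue libraries lie above both WT libraries for every gene shown, and in the lower row they lie below both. The WT points of MMP2 and COL5A1 lie far apart.

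Matrix proteases and their inhibitors moved in both directions, with 7 of 18 called higher and 4 lower, beside 7.2% and 5.51% of all tested genes. MMP2, the gelatinase A, had 3064 and 598.6 normalized counts in WT and 12451 and 10613 in labelled KO2 rescue, while matrilysin (MMP7) had 183.4 and 181.5 and 13.71 and 4.035. MMP2 changed by 3.08 on the log2 scale (SE 0.45, adjusted p = 0.000135), by 4.26 with WT replicate 1 left out and by 1.91 with WT replicate 2 left out. With only the 4 libraries compared MMP2 and TIMP3 were not called (adjusted p = 0.0742 and 0.0521). MMP7 fell by 4.41 on the log2 scale (SE 0.45, adjusted p = 3.96e-06). TIMP3, an inhibitor of metalloproteinases bound to matrix, had 24.33 and 2.659 in WT and 216.1 and 220.2.

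Chemokines and cytokines were called higher than WT for 7 of 30 tested members, where 7.2% of all tested genes were, and the median of the list was −0.06. Against WT eGFP the balance turned, with 3 called higher, 11 lower and a median of −1.08. By limma 0 were called lower and 2 were lower at an unadjusted p under 0.05. In KO2 against WT, which shares the WT libraries, the median of the same list was 1.53. A single member was called lower without WT replicate 2 and without labelled KO2 rescue replicate 1. CXCL12, a chemokine that draws cells through CXCR4, had 74.92 and 6.878 normalized counts in WT, 4654 and 4339 in labelled KO2 rescue and 22547 and 20462 in KO2. CCL20, which attracts lymphocytes and dendritic cells, had 7.712 and 10.32, 153.6 and 175.9, and 2757 and 2742 in the same order. The labelled KO2 rescue libraries lay between WT and KO2 in both genes.

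Interleukin 1 genes showed the same order. IL1A had 45.79 and 29.75 normalized counts in WT, 552.2 and 646.5 in labelled KO2 rescue and 3522 and 2980 in KO2. IL1B had 0 and 5.498, 155.1 and 158.1, and 3949 and 2701. Against WT the log2 changes in labelled KO2 rescue were 7.52 for CXCL12 (adjusted p = 5.25e-07), 4.06 for CCL20 (adjusted p = 5.64e-09), 3.98 for IL1A (adjusted p = 1.12e-09) and 5.95 for IL1B (adjusted p = 2.55e-06). IL6, the acute-phase cytokine, was instead within the WT range, at 792.1 and 842.3 against 964.2 and 599.4 in WT, with a log2 change of 0.10 (SE 0.21, adjusted p = 0.795). KO2 had 3037 and 2193. WT eGFP had IL6 at 4208 and 4332, and against it labelled KO2 rescue was called lower. That log2 change was −2.38 (adjusted p = 7.11e-07), so the nearness of IL6 to WT depended on the WT reference.

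Among growth factors and WNT, TGF-β and BMP ligands 6 of 32 were called higher and 6 lower, beside 7.2% and 5.51% of all tested genes. The median log2 change of this list was −0.25. WNT2, a canonical WNT ligand, was listed at 0 in WT and had 398.8 and 350.3 in labelled KO2 rescue and 3191 and 2595 in KO2. WNT5A, a ligand of the non-canonical branch, had 969.1 and 397.7 in WT, 1306 and 1503 in labelled KO2 rescue and 11621 and 10990 in KO2. The log2 change of 1.17 from WT to labelled KO2 rescue (adjusted p = 0.00543) was 1.81 when WT replicate 1 was left out. It was not called without WT replicate 2 (0.53) or labelled KO2 rescue replicate 2 (1.07, adjusted p = 0.0506). IGFBP3, which binds and carries insulin-like growth factors, had 27993 and 16517 in WT, 1736 and 1907 in labelled KO2 rescue and 11120 and 9410 in KO2. The fall from WT to labelled KO2 rescue was −3.56 on the log2 scale (SE 0.16, adjusted p = 6.71e-10).

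**Figure D4:**
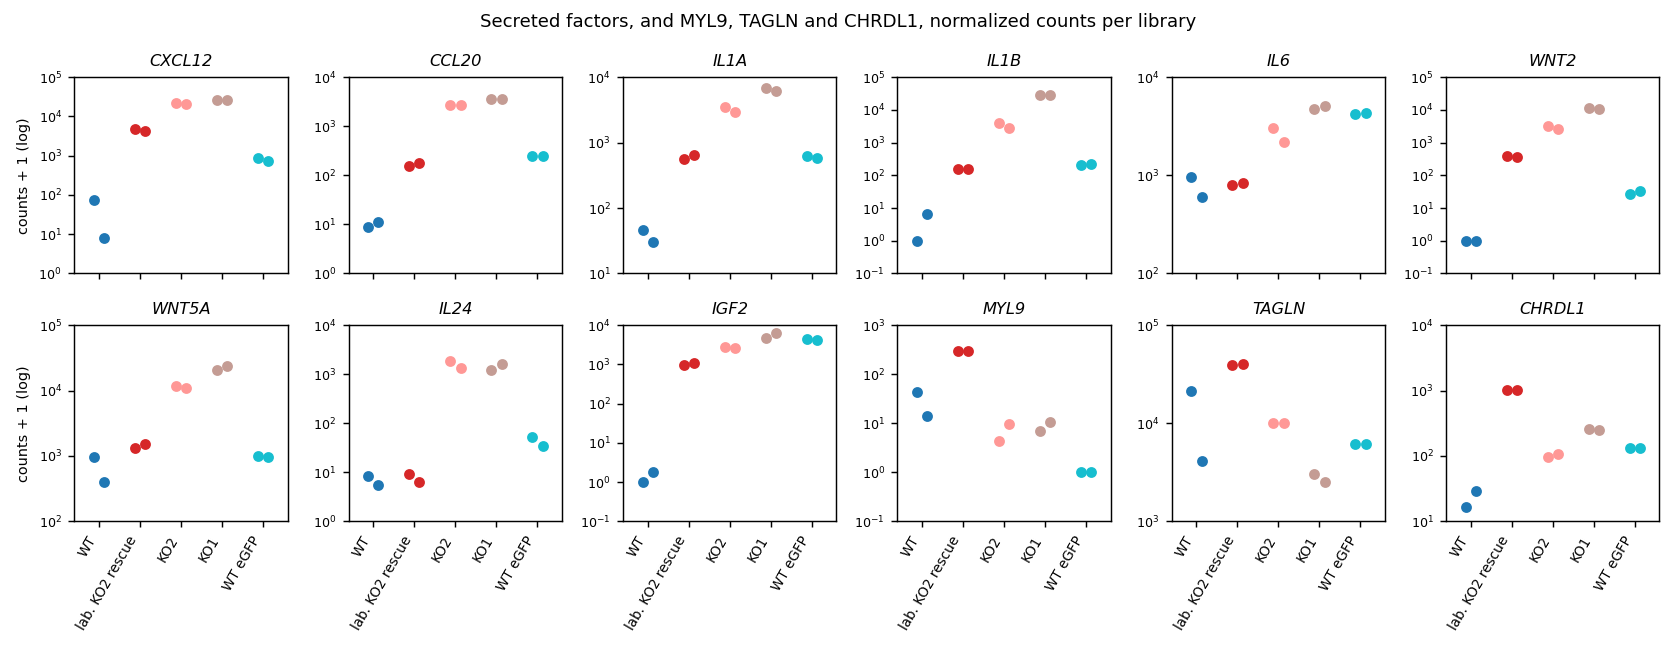
Normalized counts + 1 per library on log axes for 9 secreted factors and for MYL9, TAGLN and CHRDL1, in the same groups as above, with 1 point per library. For CXCL12, CCL20, IL1A, IL1B, WNT2, WNT5A and IGF2 the labelled KO2 rescue libraries lie between WT and KO2. For IL6 and IL24 they lie close to the WT points and below the WT eGFP points. For MYL9, TAGLN and CHRDL1 they lie above both.

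Mitosis and DNA replication genes were lower, with 13 of 31 called lower and a median log2 change of −1.54. Over all tested genes 5.51% were called lower. By limma 0 were called higher, and 0 at an unadjusted p under 0.05, while 1 was called higher without WT replicate 2. The proliferation marker MKI67 had 4088 and 6581 normalized counts in WT and 1043 and 714.2 in labelled KO2 rescue, a change of −2.59 (SE 0.52, adjusted p = 0.00195). NUSAP1, a spindle protein, had 1065 and 1896 in WT and 244.3 and 159.9, a change of −2.84 (SE 0.28, adjusted p = 3.05e-06). In KO2 against WT the median of the list was −2.40, and in labelled KO2 rescue against WT eGFP, whose cells were in 10% serum, it was −0.33 with 7 called lower and 2 higher. Of 20 cell cycle inhibitors and p53 targets, 4 were called higher, beside 7.2% of all tested genes. By limma 0 were called lower and 2 were lower at an unadjusted p under 0.05. CDKN1C, an inhibitor of cyclin-dependent kinases, had 160.2 and 151.2 in WT and 671.9 and 707.2 in labelled KO2 rescue. Its direction turned with the reference, since WT eGFP had CDKN1C at 1895 and 1669, a log2 change of −1.37 (adjusted p = 0.00233). The p53 target RRM2B had 1405 and 977.4 in WT and 3229 and 3149, a log2 change of 1.44 (SE 0.14, adjusted p = 2.59e-06).

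Genes of cholesterol synthesis and uptake were called lower in 10 of 22 cases, beside 5.51% of all tested genes. Their median log2 change was −0.98, and by limma 0 were called higher, also at an unadjusted p under 0.05. INSIG1, which holds the sterol sensor in the endoplasmic reticulum, had 613.1 and 1315 normalized counts in WT and 237 and 197.5 in labelled KO2 rescue. SREBF2, the transcription factor of the pathway, had 268.9 and 220 and 73.13 and 76.64. Against WT eGFP the same list had a median of 0.05 and 1 called lower.

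Of 26 genes of glycolysis and the hypoxia response 3 were called lower and 1 higher, a share of 15.4% that was near the 12.7% of all tested genes, and 5 were called lower without WT replicate 2. The median log2 change of the list was −0.54, and by limma 14 were lower and 4 higher at an unadjusted p under 0.05. Against WT eGFP 9 were called lower and 2 higher, with a median of −0.51. Hexokinase 2 (HK2), which traps glucose in the cell, had 651.8 and 773.4 in WT and 236.6 and 257.6, a log2 change of −1.52 (SE 0.15, adjusted p = 2.31e-06).

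Tubule genes differed by member. On the proximal tubule transport and endocytosis list 4 of 18 tested genes were called lower and 2 higher, beside 5.51% and 7.2% of all tested genes, and 1 was called higher without either labelled KO2 rescue library. SLC17A1 and SLC17A3, apical transporters of phosphate and urate, had 192 and 208.3 and 254.4 and 308.8 normalized counts in WT, and 6.324 and 7.577 and 11.01 and 12.6 in labelled KO2 rescue. The phosphate transporter SLC34A2 had 100.7 and 96.88 in WT and was listed at 0 in labelled KO2 rescue and in KO2. SLC34A2 was also listed at 0 in WT eGFP, Rescue1 and Rescue2, so its difference depended on which WT served as reference. Among nephron lineage transcription factors 2 of 20 were called higher and 3 lower, beside the same 7.2% and 5.51%, with 1 called lower without labelled KO2 rescue replicate 1. MAF, a bZIP factor, had 15.44 and 2.685 in WT and 252.4 and 302.1 in labelled KO2 rescue.

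Markers of tubular injury split, beside 7.2% of all tested genes called higher and 5.51% called lower. Of 11 tested, 3 were called higher and 4 lower, with 2 called lower without WT replicate 1. HAVCR1 (KIM-1), a receptor shed by injured proximal tubules, had 1169 and 1869 normalized counts in WT and 32.38 and 37.67 in labelled KO2 rescue, a log2 change of −5.36 (SE 0.82, adjusted p = 0.000199). CD24 had 1618 and 3887 in WT and 197.9 and 184.1, a change of −3.71 (SE 0.48, adjusted p = 4.27e-05). PROM1 (CD133), which with CD24 marks scattered tubular cells, had 1741 and 1085 in WT and 13287 and 13499, a change of 3.28 (SE 0.16, adjusted p = 1.79e-09). KO2 lay between, with PROM1 at 6219 and 7230 normalized counts.

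Direct TGF-β targets were more often lower than higher, with 6 and 2 of 17, which became 3 lower without WT replicate 1 and 1 higher without WT replicate 2. The median log2 change of this list was −0.19, and over all tested genes 5.51% were called lower and 7.2% higher. Against WT eGFP the list had 4 called lower, 3 higher and a median of −0.04. ID1, an inhibitor of basic helix-loop-helix factors, had 73.84 and 96.7 normalized counts in WT and 13.49 and 5.89 in labelled KO2 rescue. WT with TGF-β had ID1 at 49.73 and 64.82, also below WT. LTBP2, a protein of elastic microfibrils, had 36.54 and 24 in WT and 345.4 and 303.8, a log2 change of 3.41 (SE 0.61, adjusted p = 0.000799). Of 38 interferon-stimulated genes 5 were called higher and 1 lower, 15.8% beside the 12.7% of all tested genes. IFI27, an interferon-induced mitochondrial protein, had 15.77 and 8.302 in WT and 1596 and 1246 in labelled KO2 rescue (adjusted p = 9.65e-07), and OAS2, a sensor of double-stranded RNA, had 16.51 and 18.34 and 230.7 and 171.9 (adjusted p = 0.000146). Of 12 MHC class I genes 1 was called lower, and of 15 H3K36 methylation enzymes 2 were called lower, SETD2 and NSD2. These shares, 8.33% and 13.3%, were below and near the 12.7% of all tested genes. By limma 0 members of either list were called higher, and 3 and 1 were higher at an unadjusted p under 0.05. Without WT replicate 1, 1 MHC class I gene was called higher. The 1 call in MHC class I was lost without any 1 of the 4 libraries. NSD2, which dimethylates lysine 36, had 1229 and 1593 in WT and 664.4 and 616.9 in labelled KO2 rescue, and its log2 change of −1.13 was −0.94 without WT replicate 2, under the fold threshold.

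**Figure D5:**
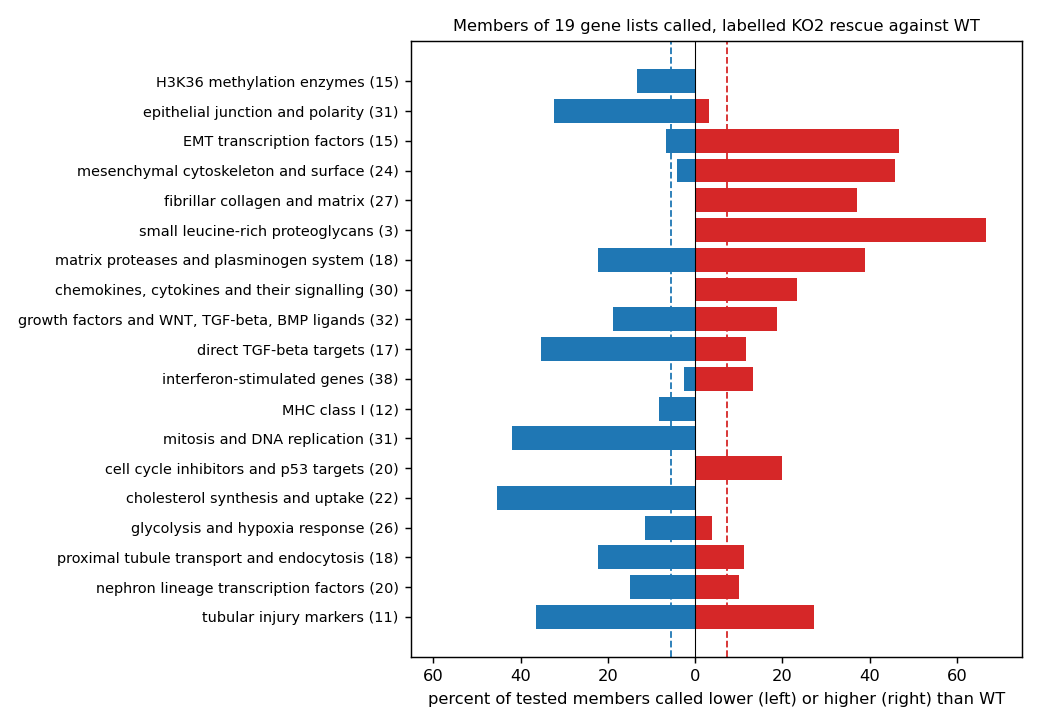
Percent of the tested members of 19 gene lists called higher (red, right) or lower (blue, left) in labelled KO2 rescue against WT, with the number tested in brackets. Dashed lines mark the share of all tested genes called higher, 7.2%, and lower, 5.51%. EMT factor and mesenchymal bars reach furthest right among lists with at least 10 tested genes, and mitosis and cholesterol bars reach furthest left.

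Some genes of labelled KO2 rescue were beyond both WT and KO2. The regulatory myosin light chain MYL9 had 290.7 and 298.3 normalized counts in labelled KO2 rescue, against 43.02 and 12.84 in WT and 3.269 and 8.664 in KO2. Its log2 change was 5.52 against KO2 (adjusted p = 0.00024) and 3.58 against WT (adjusted p = 0.00334), and the latter was 2.75 without WT replicate 2 (adjusted p = 0.0509). The BMP antagonist CHRDL1 had 15.66 and 28.55 in WT, 96.58 and 104.5 in KO2 and 1010 and 1029, changes of 5.52 against WT (SE 0.26, adjusted p = 1.31e-09) and 3.33 against KO2 (adjusted p = 7.39e-07). Endoglin (ENG), a co-receptor of the TGF-β family, had 7.034 and 3.957 in WT, 62.53 and 69.31 in KO2 and 480.4 and 493.9. The actin-binding protein TAGLN had 21533 and 4122 in WT, 10076 and 10103 in KO2 and 38765 and 40306. The log2 change of TAGLN from WT, 2.07 (adjusted p = 0.0035), was 0.88 without WT replicate 2, under the fold threshold, and 3.26 without WT replicate 1. TAGLN was not called with only the 4 libraries compared (adjusted p = 0.165), and its call against KO2 was lost without any 1 of the labelled KO2 rescue or KO2 libraries (adjusted p = 0.0601 to 0.0717).

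In the other direction, SHISA2, an inhibitor of WNT and FGF receptor maturation, had 66.23 and 42.07 normalized counts in labelled KO2 rescue, against 765.9 and 651.7 in WT and 1381 and 1435 in KO2. Its log2 changes were −3.72 against WT (SE 0.21, adjusted p = 7.2e-09) and −4.71 against KO2 (adjusted p = 1.68e-09). EHF, an epithelial ETS factor, had 101.8 and 109.7 in WT, 114.7 and 130.6 in KO2 and 11.55 and 8.199, a change of −3.31 against WT (adjusted p = 0.00127). The labelled KO2 rescue libraries lay below all WT and KO2 libraries in both genes. Both were chosen for lying below WT and for a call against KO2, so this is a description. OSGIN2 and CD68 were named by the same rule but varied between duplicates, OSGIN2 with 0 and 204.9 and CD68 with 30.57 and 2.539 in labelled KO2 rescue. Their log2 changes from WT of −5.11 and −3.57 were −1.27 without labelled KO2 rescue replicate 1 for OSGIN2 and −1.99 without replicate 2 for CD68 (adjusted p = 0.231). Without replicate 1 OSGIN2 was still called (adjusted p = 0.0203). Both calls were lost without either WT library, with adjusted p = 0.0889 and 0.0595 for OSGIN2 and 0.0839 and 0.0507 for CD68.

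A further group of genes called in KO2 was at the level of untreated WT here. IL24, a cytokine of the IL-10 family, had 8.336 and 5.209 normalized counts in labelled KO2 rescue, against 7.294 and 4.641 in WT and 1829 and 1340 in KO2. ZNF469, a zinc finger gene, had 138.1 and 184.2 in KO2 and was listed at 0 in WT and labelled KO2 rescue. DEFB4A, an antimicrobial defensin, had 33.86 and 26.2 in KO2, and C8A, a complement component, had 30.58 and 23.45, both listed at 0 in WT and labelled KO2 rescue. These genes were chosen for an absolute log2 change from WT under 0.5, so their nearness to WT is a description. For most of them it also depended on the WT reference. WT eGFP had DEFB4A at 27.21 and 28.59, near the KO2 values, and IL24 at 51.13 and 34.18. Against WT eGFP, DEFB4A (−4.85 on the log2 scale), IL24 (−2.49) and ZNF469 (−2.53) were called lower in labelled KO2 rescue, while C8A was not called.

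Several of these genes depended on the WT reference. Against WT eGFP 2451 of the 14585 genes (16.8%) were called, 1344 higher and 1107 lower, in a comparison in which serum, vector and SETD2 status cannot be told apart. IGF2, near 0 in WT, had 4508 and 4291 normalized counts in WT eGFP, and labelled KO2 rescue was lower than this by 2.09 on the log2 scale. ZEB2 had 1886 and 1593 in WT eGFP, a log2 change of −0.17 that was not called. CCL20, IL1A and IL1B had 247.2 and 246, 626.1 and 581.5, and 204.3 and 217.8 in WT eGFP, and were not called against it. EHF, INSIG1, LUM, MKI67 and WNT5A were also called against WT and not against WT eGFP. PDPN, COL5A1, COL6A3 and DCN were higher than in WT eGFP too, by log2 changes of 6.81, 8.26, 5.10 and 4.45, and MUC1 and ESRP2 were lower, with −4.24 and −2.63.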

How the data were processed

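RNA-seq was made from poly(A) RNA of RPTEC with a stranded library kit. The authors quantified reads with salmon against the GRCh38 cDNA set of Ensembl release 94 and normalized with deseq2. The submitters' notes list Salmon 1.9.0, DESeq2 1.26.0 and hg38. The deposited values are log2 values for 36859 genes with the form of a variance-stabilizing transformation (11.32, the shared minimum, stands for 0, and 21.28 is the highest), which were inverted to normalized counts. Salmon estimates counts from transcripts, so similar genes may share reads. Reads per library were approximated by taking the most frequent low normalized count as that of a lone read. They came to 7700000 to 19000000 over the 22 libraries, so low genes are measured with little precision. Only 7.6% to 17.8% of the low values of a library lay close to a whole multiple of its lone-read count, so the read totals are rough.

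Groups came from the labels. Log2(normalized count + 1) was tested with limma 3.58.1 in R 4.3.3 (moderated test, variance trend, Benjamini-Hochberg over the 14585 genes that reach 10 normalized counts in 2 or more libraries, all 22 libraries in 1 fit, no covariate). Fold changes are on this scale, which understates those of low genes. Simulated data for 13597 genes gave 199 of 200 planted log2 changes of 2 as called in labelled KO2 rescue against WT, with 3 unchanged genes called. GENCODE release 44 names 33878 of the genes.

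The line, the 25 gene lists and the members were chosen with earlier results of these data known. Genes named were SETD2, the 10 largest rises and falls (protein-coding, mean of at least 100 in the higher group, duplicates not overlapping), up to 4 called members per list with the largest change, genes the study names, 5 rises and 5 falls called against both WT and KO2, and 5 per direction called in KO2 and called back with an absolute log2 change from WT under 0.5. That makes 118 genes, of which those with little further to show are in counts, and some results are not reported here. The settings varied were the pseudocount (0.5 or 5), the filter (none, or a mean of 50 or more), quantile normalization, the same total, fewer libraries, the deposited log2 values, a replicate block, no variance trend, and each library left out in turn. Python 3.11.15 and matplotlib 3.10.9 were used.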

Additional observations from a re-analysis of the deposited data

Results flagged for a closer look

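Several named genes had effects against WT that differed between labelled KO2 rescue and KO2, by the direct limma test between the 2 lines over all 14585 genes. Outliers could not be looked for with 2 libraries per group. Values below are log2 differences of labelled KO2 rescue from KO2, and the comparisons of both lines with WT share the WT libraries.

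Cytokines called lower than in KO2 are given first, all of them picked by their calls. The differences were −4.06 for CCL20, −2.26 for CXCL12, −2.44 for IL1A, −4.37 for IL1B, −7.68 for IL24 and −1.66 for IL6. Among WNT, IGF and IGF-binding genes they were −2.94 for WNT2, −3.01 for WNT5A, −1.39 for IGF2 and −2.49 for IGFBP3. The whole list of growth factors and ligands had 3 called higher, 5 lower and a median of 0.21 against KO2. Genes listed at 0 in labelled KO2 rescue and WT, whose values depend on the pseudocount, were ZNF469 at −7.33, GOLGA7B at −5.77, DEFB4A at −4.94 and C8A at −4.80.

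Surface, matrix and enzyme genes that were lower than in KO2 were DCN at −1.41, MMP7 at −1.78, CA12 at −3.63, KDR at −4.0 and CDH16 at −5.10. Regulators that were lower were PRRX1 at −4.65, EHF at −3.52 and SHISA2 at −4.71. CD68 at −3.98 and OSGIN2 at −5.02 varied widely between duplicates.

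Genes that were higher than in KO2 were MYL9 at 5.52, GSTM3 at 4.26, CHRDL1 at 3.33, HTR1D at 2.87, ENG at 2.87, TAGLN at 1.97 and EBP at 1.46. Genes listed at 0 in one or both KO2 libraries were also higher, PFDN6 at 6.77, GAB3 at 5.18, RBM15 at 4.89, N4BP2 at 4.76 and POC1B-GALNT4 at 4.44.

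Many of these calls rested on every library being kept. Without any 1 of the labelled KO2 rescue or KO2 libraries, the calls of CXCL12 (adjusted p = 0.112 to 0.146), IGF2 (0.129 to 0.188), TAGLN (0.0601 to 0.0717), HTR1D (0.0948 to 0.117), GOLGA7B (0.147 to 0.162), PFDN6 (0.117 to 0.128), GAB3 (0.0881 to 0.156) and POC1B-GALNT4 (0.0692 to 0.239) were lost. The calls of CD68, EBP, OSGIN2, MMP7 and N4BP2 were lost without some of them, with the highest adjusted p at 0.235, 0.347, 0.161, 0.227 and 0.32. All of these but CD68 and GAB3 were also lost with only the 10 libraries in 2% serum.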

How the results depend on the processing

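For labelled KO2 rescue against WT, the count of 1854 called genes was 1277 to 2025 under the alternatives other than the deposited log2 values, and 1440 to 1703 with 1 library left out. On the deposited log2 values, a scale that compresses low genes, 46 genes passed both thresholds and 3596 passed the adjusted p alone, where 3390 did so in the fit reported. On that scale the other counts were 35 against KO2, 94 for KO2 against WT, 178 for KO1 against WT, 59 against WT eGFP and 20 of the list genes, which were 608, 2378, 3653, 2451 and 140. With only the 10 libraries in 2% serum 393 genes were called against KO2, and with only the 4 libraries compared 2241 were called for KO1 against WT.

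The replicate numbers are only names, since the differences between replicates 1 and 2 of WT and labelled KO2 rescue correlated at −0.013 over 8276 genes. With a replicate block 1834 genes were called against WT and 583 against KO2, and of the 99 named genes called against WT 0 were lost. Of those 99, 68 were called under every alternative but the deposited log2 values, and 0 changed direction. Without WT replicate 2, 17 were lost, and without labelled KO2 rescue replicate 2, 13. With only the 4 libraries compared 19 were lost, among them FN1, MMP2, TAGLN, POU2F2, CDH16, TIMP3 and WNT5A, and CDH1 was called (adjusted p = 0.0364). Of the calls against KO2, those of EBP and IGF2 were lost under the block (adjusted p = 0.0529 and 0.0511). Depth limits genes with few reads.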

Other observations

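The genes beyond both WT and KO2 are set here beside the clones Rescue1 and Rescue2, which were grown in 10% serum and have SETD2 mRNA far above WT. IGFBP3 had 871.5 to 989.6 normalized counts in these 4 rescue libraries, against 1736 and 1907 in labelled KO2 rescue and 11120 and 9410 in KO2. SHISA2 had 12.54 to 126.8 in them and 66.23 and 42.07 in labelled KO2 rescue. EHF had 0 to 5.127 in them and 11.55 and 8.199 in labelled KO2 rescue. CHRDL1 had 513.8 to 1059 in them, TAGLN 32899 to 43760 and ENG 175.9 to 631, where labelled KO2 rescue had 1010 and 1029, 38765 and 40306, and 480.4 and 493.9. MYL9 did not follow this order, with 0 to 4.463 in the rescue clones against 290.7 and 298.3 in labelled KO2 rescue. DCN did not either, with 362.8 to 610.9 in the rescue clones against 37572 and 35187. GSTM3 had 290.5 and 320.8 in Rescue1 but 16.31 and 7.861 in Rescue2, against 456.6 and 553.9 in labelled KO2 rescue. HTR1D had 206.9 and 207.1 in Rescue1 and 77.61 and 47.47 in Rescue2, against 368.9 and 340. OSGIN2 had 254.4 to 403.2 in the rescue clones, against 0 and 204.9. CDH16 had 37.03 to 48.95 in them, against 0 and 15.31, and CD68 had 0 to 36.77, against 30.57 and 2.539. None of these differences from the rescue clones was tested, and serum differs between the groups.

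By the median absolute log2 difference over the 14585 tested genes, the groups nearest to labelled KO2 rescue after KO2 (0.375) were Rescue2 at 0.501, WT with TGF-β at 0.505, WT at 0.508 and Rescue1 at 0.512. These 4 values lie close together, and no error was estimated for them.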
